A study of Mus musculus with 6 samples.

Results

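The genes described are 10 components of insulin-like growth factor (IGF) and insulin signalling, taken from the colon expression table by gene symbol: the ligands *Igf1* and *Igf2*, the receptors *Igf1r* and *Insr*, the adaptors *Irs1* and *Irs2*, and the IGF binding proteins *Igfbp3*, *Igfbp4*, *Igfbp5* and *Igfbp6*. All 10 were found among the 17778 genes of the table, and all 10 were among the 13520 genes that passed the filter on low values (at least 0.5 FPKM in at least 3 mice). Of the 10, 8 reached that level in all 6 mice, *Igf1* in 5 mice and *Irs1* in 4 mice. Colon was sampled from 3 obesity-prone (OP) and 3 obesity-resistant (OR) mice. All 6 were wild-type (WT) C57BL/6J males of 21 weeks of age that had received a high-fat diet for 16 weeks, and the mice that gained most weight on it were taken as OP and those that gained least as OR. The groups were therefore set by an outcome within 1 strain, no allele or agent is given that separates them, and mice on a normal diet were not analysed here.

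IGF1 and IGF2 are secreted growth factors that activate the IGF1 receptor, whereas insulin activates the closely related insulin receptor. Both receptors are tyrosine kinases that phosphorylate the adaptors IRS1 and IRS2, which recruit PI3-kinase and so activate AKT, leading to mTOR activity and to the exclusion of FOXO transcription factors from the nucleus. Most IGF outside cells is held by IGF binding proteins, which regulate how much ligand reaches the receptor. In the gut, IGF ligands and several of these binding proteins are made mainly by mesenchymal cells, while the epithelium carries the receptors and responds to the ligands with growth.

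All 4 binding proteins and both ligands had lower values in every OP mouse than in any OR mouse, and the receptors and adaptors did not separate the groups. The summed expression of the 4 binding proteins was 31.3 ± 8.54 FPKM (SD, n = 3) in OP mice and 75.6 ± 14.2 FPKM (SD, n = 3) in OR mice. *Irs2* was the only one of the 10 with a higher mean in OP mice. None of these differences passed a test corrected over all genes. FPKM (fragments per kilobase of transcript, scaled to library size) is a per-length level, so that levels can be compared roughly between genes within a mouse. A comparison between mice depends on the scaling as well, since FPKM is relative to the whole library.

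**Figure D1:**
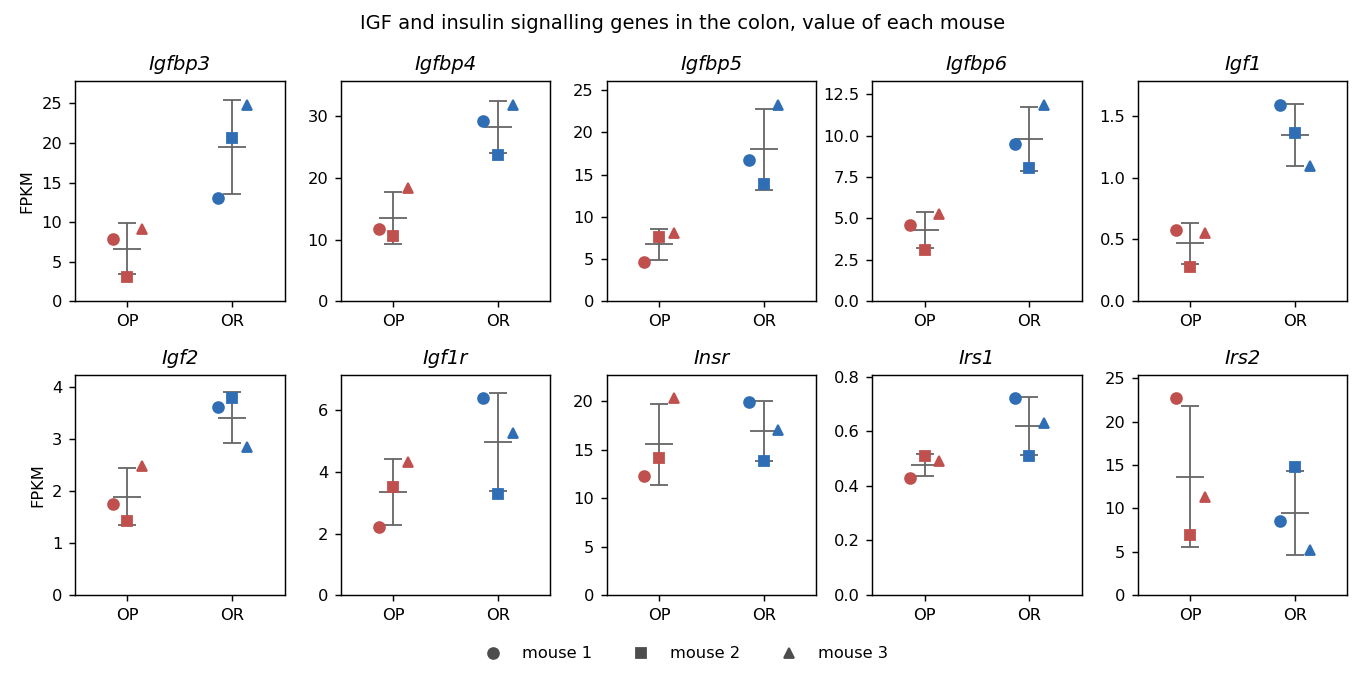
FPKM of the 10 genes in each mouse (vertical axes, from 0) in OP (red) and OR (blue) mice, with the mean and SD of 3 mice in grey and marker shapes giving the mouse number, which does not pair mice between groups. In the 4 binding proteins, *Igf1* and *Igf2* the red and blue points do not overlap, for example 3.04 to 9.11 against 13.07 to 24.85 FPKM for *Igfbp3*, whereas in *Igf1r*, *Insr* and *Irs2* they do and in *Irs1* they meet at 0.51.

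OP mouse 1 stood apart from the other libraries: it had the lowest value of the 6 mice in 54.4% of the genes tested, against 5.26% to 17.3% for each of the other mice. Its 10 highest genes took 9.88% of its total FPKM, compared with 6.48% to 8.77% in the others. The FPKM totals lay between 585350 and 600028, and sequencing depth is unknown, since FPKM keeps no read totals. All 6 colon identity markers were present in every mouse, with 17.59 FPKM of the goblet cell mucin *Muc2* in OP mouse 1 as their lowest value. Some varied widely within a group. *Car1* had 1054 to 14580 FPKM in OP mice, and *Muc2* 17.59 to 563.4 FPKM in OP and 154.4 to 933.2 FPKM in OR mice. *Cdx2* varied less, with 198.8 to 245.7 FPKM in OP mice. Whether the pieces of colon were alike was not tested. Of 5 genes found from a list of markers of other tissues, *Alb*, *Cpa1* and *Prss2* did not exceed 0.72 FPKM. In that list *Apoa1* reached 4.7 FPKM in OP mouse 1 and *Cela1* had 27.58 to 115.3 FPKM. The median log2 fold change OP/OR of all genes tested was -0.10, and 0.01 after median-of-ratios scaling, so each difference below has to be read against a shift of that size. With the fold change and q-value thresholds used here (at least 1.2 or at most 0.83, and q below 0.2), 0.0222% of all genes tested were called lower and 0% higher in OP mice. The study reported more genes in each direction at the same thresholds with another test, DESeq2, which was not run here. The called shares therefore hold for limma-trend on FPKM only.

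The binding proteins are encoded at separate places in the genome, and all 4 transcripts had lower values in OP mice. The sequences just before their annotated starts differed in base composition. The RefSeq windows of build GRCm38.p6 are chr11:7213924-7214173 (minus strand) for *Igfbp3*, chr11:99040994-99041243 (plus strand) for *Igfbp4*, chr1:72874866-72875115 (minus strand) for *Igfbp5* and chr15:102143936-102144185 (plus strand) for *Igfbp6*. Each is printed 5′ to 3′ as the 250 bases before the start, with the letters TATAAA, searched on both strands, in capitals.
Igfbp3: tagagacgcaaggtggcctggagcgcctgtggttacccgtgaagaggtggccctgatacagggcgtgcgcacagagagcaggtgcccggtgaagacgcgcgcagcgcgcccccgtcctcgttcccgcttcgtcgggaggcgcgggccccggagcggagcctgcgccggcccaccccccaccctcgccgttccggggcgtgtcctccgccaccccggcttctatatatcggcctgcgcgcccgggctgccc
Igfbp4: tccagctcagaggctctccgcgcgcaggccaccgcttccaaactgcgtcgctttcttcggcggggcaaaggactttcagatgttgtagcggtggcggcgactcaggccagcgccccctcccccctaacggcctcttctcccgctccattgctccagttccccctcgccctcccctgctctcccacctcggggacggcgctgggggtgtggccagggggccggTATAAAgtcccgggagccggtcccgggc
Igfbp5: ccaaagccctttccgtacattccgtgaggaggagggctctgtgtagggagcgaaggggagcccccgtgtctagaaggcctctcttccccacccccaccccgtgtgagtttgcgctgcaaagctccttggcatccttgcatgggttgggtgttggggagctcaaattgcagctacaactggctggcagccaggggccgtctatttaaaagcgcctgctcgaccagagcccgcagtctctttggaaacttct
Igfbp6: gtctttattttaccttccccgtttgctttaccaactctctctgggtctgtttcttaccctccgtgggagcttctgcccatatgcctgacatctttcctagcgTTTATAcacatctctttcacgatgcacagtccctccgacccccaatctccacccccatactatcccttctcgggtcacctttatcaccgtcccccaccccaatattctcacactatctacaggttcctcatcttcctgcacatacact

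G and C made up 73.2% of the *Igfbp3* window, 69.2% of the *Igfbp4* window, 58.8% of the *Igfbp5* window and 49.6% of the *Igfbp6* window, against a median of 52.4% over 32851 windows of all genes. The CG dinucleotide occurred 32 times before *Igfbp3*, 22 times before *Igfbp4*, 10 times before *Igfbp5* and 7 times before *Igfbp6*, and the median over all windows was 6. TATAAA began 28 bases before the start of *Igfbp4*, and a match on the opposite strand began 148 bases before the start of *Igfbp6*. No match was found in the windows of *Igfbp3* and *Igfbp5*, and 12.4% of all windows hold one. Only these exact letters were searched. Related stretches, such as tatatat near the end of the *Igfbp3* window and tatttaaaa in that of *Igfbp5*, were not counted. The missing match therefore does not show that these promoters lack a TATA-like element. The GC box letters GGGCGG, searched on both strands, were in none of these 4 windows and in 32.7% of all windows. Windows were found for 9 of the 10 genes (12 windows, 4 of them for *Igf2*). By annotation of the same build, *Igfbp5* lies next to *Igfbp2* and *Igfbp3* next to *Igfbp1*.

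IGFBP3, the main carrier of IGF in blood, was the binding protein with the widest difference. *Igfbp3* had 7.84, 3.04 and 9.11 FPKM in OP mice 1, 2 and 3 and 13.07, 20.65 and 24.85 FPKM in OR mice 1, 2 and 3. The OR values spread widely, yet the lowest of them lay above the highest OP value, and OP mouse 2 was far below the other mice of its group. The OR mean was 2.93 times the OP mean. On the log2(FPKM + 1) scale, on which fold changes of low genes are understated, the log2 fold change OP/OR was -1.48 (standard error 0.39, 95% interval -2.39 to -0.58, adjusted p = 0.798, limma-trend with Benjamini-Hochberg adjustment over 13520 genes).

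*Igfbp4*, whose protein restrains IGF action until it is cleaved by the protease PAPP-A, had 11.72, 10.56 and 18.4 FPKM in the OP group, against 29.18, 23.75 and 31.9 FPKM in the OR group. It had the highest mean of the 4 in both groups, and OP mouse 3, the highest of its group, still lay below OR mouse 2. The OR mean was 2.08 times the OP mean, with a log2 fold change of -1.04 (standard error 0.23, 95% interval -1.57 to -0.50, adjusted p = 0.710, limma-trend).

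*Igfbp5* encodes a binding protein that also attaches to extracellular matrix. Its values were 4.67, 7.58 and 8.04 FPKM in the OP group, against 16.76, 13.89 and 23.27 FPKM in the OR group. The gap between the groups was wide beside the spread within OP mice, and OR mouse 3 was the highest. The OR mean was 2.66 times the OP mean. The log2 fold change was -1.29 (standard error 0.26, 95% interval -1.90 to -0.68), and its adjusted p of 0.636 (limma-trend) was the smallest of the 10 genes.

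*Igfbp6*, whose protein prefers IGF2 over IGF1, had the lowest mean of the 4 binding proteins in both groups. The OP group had 4.58, 3.08 and 5.24 FPKM and the OR group 9.5, 8.02 and 11.87 FPKM, again without overlap and with OR mouse 3 on top. The OR mean was 2.28 times the OP mean, and the log2 fold change was -1.03 (standard error 0.23, 95% interval -1.58 to -0.49, adjusted p = 0.710, limma-trend). In all 4 binding proteins a two-sided exact permutation test of the FPKM means gave p = 0.1, and no smaller p can be had from 3 mice against 3.

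The makeup of the binding protein transcripts was examined as the share of each gene in the summed FPKM of the 4, which does not depend on how the mice are scaled. The sums were 28.8, 24.3 and 40.8 FPKM in the OP group, against 68.5, 66.3 and 91.9 FPKM in the OR group, so that OR mice had 2.42 times as much on average. *Igfbp4* held the largest share in every mouse, 43.1% ± 2.24 (SD, n = 3) in OP and 37.7% ± 4.27 (SD, n = 3) in OR mice. *Igfbp5* held 22.4% ± 7.87 (SD, n = 3) and 23.6% ± 2.32 (SD, n = 3), *Igfbp3* 20.7% ± 7.48 (SD, n = 3) and 25.8% ± 6.13 (SD, n = 3). The *Igfbp6* share was 13.8% ± 1.81 (SD, n = 3) and 13.0% ± 0.887 (SD, n = 3). The shares overlapped between the groups for all 4 genes, and the two-sided exact permutation p lay between 0.2 for *Igfbp4* and 0.9 for *Igfbp5* (0.8 to 0.9 after Benjamini-Hochberg adjustment over the 4 shares). The difference in the *Igfbp5* share, -1.19 percentage points, changed sign without OP mouse 1 (1.90) and without OP mouse 3 (0.15). A difference in makeup was not detectable with 3 mice per group.

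**Figure D2:**
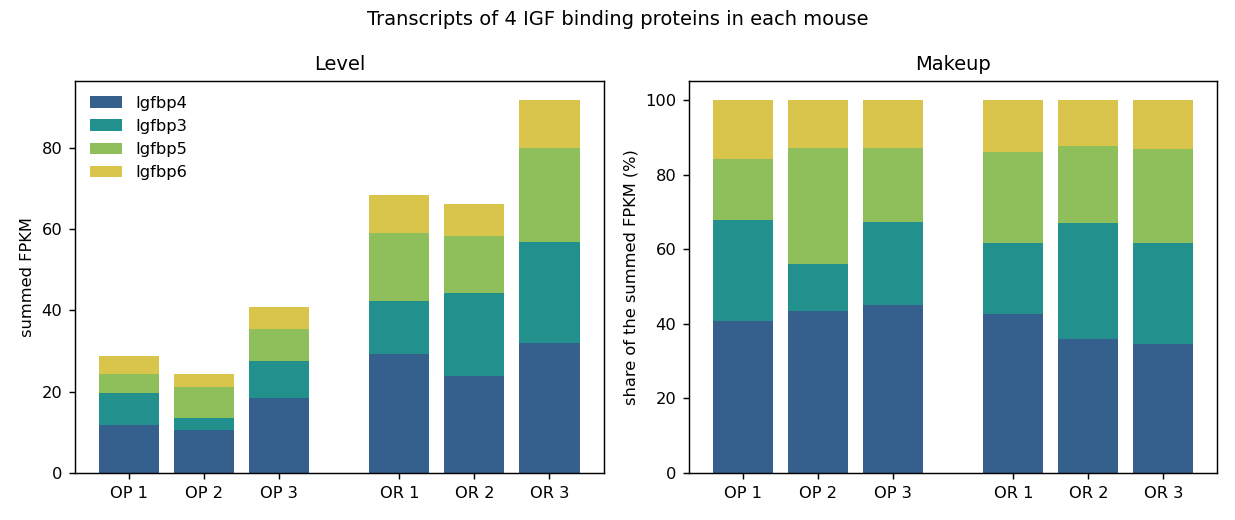
Stacked bars of the FPKM of *Igfbp3* to *Igfbp6* in each mouse (left, summed FPKM from 0) and of their shares in that sum (right, percent). The OP sums stand at 24.3 to 40.8 and the OR sums at 66.3 to 91.9, whereas the shares overlap, with *Igfbp4* at 40.7% to 45.1% in OP and 34.7% to 42.6% in OR mice.

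Both ligands were at low levels. *Igf1* had 0.58, 0.28 and 0.55 FPKM in the OP group, against 1.59, 1.36 and 1.09 FPKM in the OR group. The groups did not overlap, even though only 1.42% of the genes tested had a lower mean than *Igf1* in OP mice. The OR mean was 2.87 times the OP mean, while the log2 fold change of -0.68 (standard error 0.17, 95% interval -1.08 to -0.27, adjusted p = 0.798, limma-trend) was smaller because of the pseudocount of 1, and it was -1.38 with a pseudocount of 0.1.

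*Igf2*, an imprinted growth factor gene of fetal tissues, had 1.76, 1.42 and 2.49 FPKM in the OP group, against 3.61, 3.78 and 2.85 FPKM in the OR group. The groups came close to each other at OP mouse 3 and OR mouse 3 but did not overlap. The OR mean was 1.81 times the OP mean, and the log2 fold change was -0.62 (standard error 0.21, 95% interval -1.11 to -0.13, adjusted p = 0.945, limma-trend). The exact permutation p was 0.1 for each ligand. *Igf2* was 3.03, 5.07 and 4.53 times *Igf1* in the OP group, against 2.27, 2.78 and 2.61 times in the OR group. The binding proteins together had 12.3 to 14.3 times the summed FPKM of the ligands in OP mice and 12.9 to 23.3 times in OR mice, and these ratios overlapped. *Igf2* shares its strand with the overlapping gene *Gm49394* and the microRNA gene *Mir483*, and *Igf1*, *Igf2*, *Insr*, *Irs1* and *Irs2* each have an annotated antisense gene. The library was strand-specific, but the strand setting of the quantification is not given in the sources used here, so these values may include reads of the partner.

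The receptors were more alike in the groups. *Insr*, the insulin receptor, had 12.25, 14.13 and 20.31 FPKM in the OP group, against 19.99, 13.82 and 17.07 FPKM in the OR group, and OP mouse 3 had the highest value of all. Its log2 fold change was -0.13 (standard error 0.22, 95% interval -0.66 to 0.39, adjusted p = 0.952, limma-trend) and turned to 0.01 without OP mouse 1. *Igf1r*, the IGF1 receptor, had 2.2, 3.52 and 4.32 FPKM in the OP group, against 6.39, 3.27 and 5.27 FPKM in the OR group. Here 2 of 3 OR mice lay above all OP mice and OR mouse 2 lay among them, with a log2 fold change of -0.45 (standard error 0.29, 95% interval -1.12 to 0.21, adjusted p = 0.945, limma-trend). Without OP mouse 1 it was -0.25 and without OR mouse 2 it was -0.68. The intervals of both receptors reach past -0.65 on the log2 scale, the median of the ligands, so a difference of that size cannot be dismissed for either with 3 mice per group.

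*Insr* exceeded *Igf1r* in every mouse, 4.01 to 5.57 times in OP and 3.13 to 4.23 times in OR mice. The log2 ratio of *Igf1r* to *Insr*, which is free of scaling between mice, was -2.48, -2.01 and -2.23 in the OP group, against -1.65, -2.08 and -1.70 in the OR group. The means were -2.24 ± 0.24 and -1.81 ± 0.24 (SD, n = 3 each), with a two-sided exact permutation p of 0.2. OR mouse 2 and OP mouse 2 made the groups overlap.

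Of the adaptors, *Irs2* had far more transcript than *Irs1*, between 8.21 and 52.7 times as much in a mouse. *Irs1* had 0.43, 0.51 and 0.49 FPKM in the OP group, against 0.72, 0.51 and 0.63 FPKM in the OR group. The groups met at 0.51, and the log2 fold change was -0.13 (standard error 0.15, 95% interval -0.47 to 0.21, adjusted p = 0.945, limma-trend).

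*Irs2*, the adaptor whose gene FOXO factors activate when insulin is low, had 22.68, 6.92 and 11.34 FPKM in the OP group, against 8.51, 14.78 and 5.17 FPKM in the OR group. Its SD of 8.13 FPKM around a mean of 13.6 FPKM was the largest among the 10 genes in OP mice. The groups overlapped between 6.92 and 14.78 FPKM, with OP mouse 1 above every OR mouse. The log2 fold change was 0.44 (standard error 0.47, 95% interval -0.65 to 1.53, adjusted p = 0.945, limma-trend). The difference was 0.02 without OP mouse 1, 0.11 without OR mouse 3 and 0.81 without OP mouse 2.

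Counted over the 10 genes, 6 had an unadjusted limma-trend p below 0.05, all lower in OP mice, where 3.53% of all genes tested were lower and 0.503% higher at that level. The same 6 genes did not overlap between the groups, against 6.81% of all genes tested lower and 1.63% higher without overlap. Adjusted over all genes, 0 of the 10 passed a q-value of 0.2. The 10 genes were chosen with earlier results of these data known, and their values come from the same 6 mice. These counts therefore describe the genes and are not independent evidence of a difference. Over the 10 genes the log2 fold changes had a median of -0.65. Without OP mouse 1 that median was -0.66 against -0.01 for all genes, and median-of-ratios scaling gave -0.57 against 0.01.

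**Figure D3:**
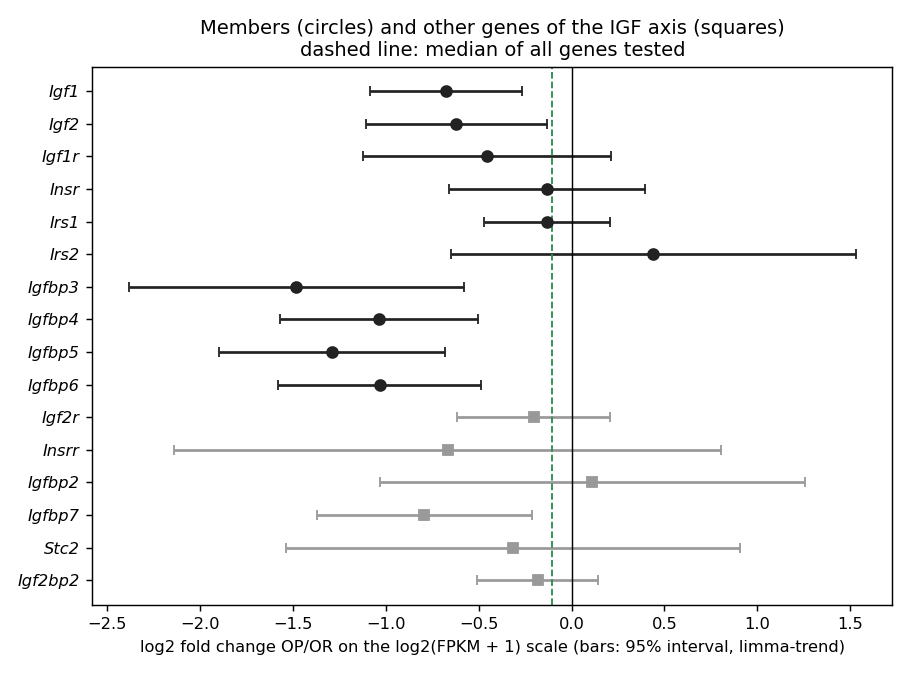
Log2 fold change OP/OR on the log2(FPKM + 1) scale with its 95% interval from limma-trend, for the 10 genes (black circles) and 6 other genes of the IGF axis (grey squares), with the median of all genes tested as a dashed line at -0.10. The intervals of the 4 binding proteins, *Igf1* and *Igf2* lie below 0, those of *Igf1r*, *Insr*, *Irs1* and *Irs2* span 0, and *Igfbp7* is the only grey square whose interval does not reach 0.

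*Insr* (15.6 FPKM), *Irs2* (13.6 FPKM) and *Igfbp4* (13.6 FPKM) had the highest means in OP mice, and the ranges of neighbours in this order overlapped. *Igfbp5* (6.76 FPKM) and *Igfbp3* (6.66 FPKM) followed by mean, though both reached above the lowest *Irs2* value of 6.92 FPKM. Then came *Igfbp6*, *Igf1r* and *Igf2*, each overlapping with the next. *Irs1* and *Igf1* came last and overlapped with each other. In OR mice *Igfbp4* (28.3 FPKM), *Igfbp3* (19.5 FPKM) and *Igfbp5* (18.0 FPKM) led, with ranges that overlapped between neighbours, and *Insr* (17.0 FPKM) came next and overlapped with *Igfbp5*. *Igfbp6* and *Irs2* had lower means than *Insr* and overlapped with each other. The highest *Irs2* value (14.8 FPKM) lay above the lowest values of *Igfbp3*, *Igfbp5* and *Insr* (13.1, 13.9 and 13.8 FPKM). *Igf1r*, *Igf2*, *Igf1* and *Irs1* followed. The ranges of *Igf2*, *Igf1* and *Irs1* did not overlap with each other.

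The other genes of the IGF axis were examined as a list of 15, of which 13 were found in the table and 6 passed the filter. Of the 6, 1 had an unadjusted p below 0.05 in limma-trend, *Igfbp7*, where 3.53% of all genes tested were lower at that level, and 0 passed the q-value threshold. *Igfbp7* encodes a related protein of vessels and stroma with weak affinity for IGF. It had 35.58, 41.44 and 62.21 FPKM in the OP group, against 74.87, 64.4 and 101.8 FPKM in the OR group, which did not overlap. It differed by -0.79 on the log2 scale (standard error 0.25, adjusted p = 0.945, limma-trend). *Igfbp2*, the neighbour of *Igfbp5*, had 1.26, 6.83 and 4.14 FPKM in the OP and 4.6, 1.61 and 3.92 FPKM in the OR mice, a difference of 0.11 on the log2 scale with a 95% interval from -1.03 to 1.26. *Igf2r*, which clears IGF2 from the cell surface, had a mean of 17.8 ± 2.44 FPKM (SD, n = 3) in OP and 20.7 ± 3.30 FPKM (SD, n = 3) in OR mice, with overlapping values. The 7 genes that did not pass the filter included the proteases *Pappa* and *Pappa2*, the acid labile subunit gene *Igfals* and the PAPP-A inhibitor *Stc1*, none of which exceeded 1.06 FPKM in a mouse. *Stc1* had lower values in every OP mouse (0.06 to 0.21 FPKM) than in any OR mouse (0.26 to 0.86 FPKM). So did *Igf2bp2*, an RNA-binding protein gene, with 18.02 to 21.54 FPKM in OP and 21.6 to 24.86 FPKM in OR mice and a log2 fold change of -0.18 (95% interval -0.51 to 0.14). These genes other than *Igfbp7* were picked as examples after their values had been seen.

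Downstream of the receptors, 54 genes in 4 lists were tested, and 0 of them had an unadjusted limma-trend p below 0.05 and a lower value in OP mice, where 3.53% of all genes tested did, while 2 had a higher one, where 0.503% did. With so few genes a count of 0 is near that background. Among 13 adaptors and negative regulators close to the receptors, 0 had a p below 0.05 at the settings used here. The smallest p, 0.0517 by limma-trend, belonged to *Grb10*, an adaptor that inhibits both receptors, and lay between 0.0359 and 0.0479 in limma without trend, with median-of-ratios scaling, with a floor of 1 FPKM, with sample weights and without OR mouse 2. *Grb10* had 1.37, 1.82 and 1.97 FPKM in the OP group, against 3.65, 2.21 and 2.64 FPKM in the OR group, which did not overlap (adjusted p = 0.945, limma-trend). Of 17 genes of the PI3K-AKT branch, 0 passed that level. The first of them was *Phlpp2*, a phosphatase that removes an activating phosphate of AKT, with 15.1, 18.65 and 8.43 FPKM in the OP group, against 7.17, 10.88 and 5.12 FPKM in the OR group (log2 fold change 0.78, adjusted p = 0.945, limma-trend). Its unadjusted limma-trend p of 0.0553 was 0.0118 without OP mouse 3, 0.024 without OR mouse 2, 0.019 with sample weights and 0.0106 with the replicate block. Of 13 mTOR genes also 0 passed. The gene with the smallest p there was *Eif4ebp1*, a translation repressor inhibited by mTOR, with a log2 fold change of -0.26 (adjusted p = 0.945, limma-trend). This value was -0.45 without OP mouse 1, with an unadjusted limma-trend p of 0.0371, -0.14 without OP mouse 2 and -0.13 with median-of-ratios scaling. The median log2 fold changes were -0.11, -0.09 and -0.04 for these 3 lists, close to the -0.10 of all genes, while median-of-ratios scaling gave -0.01, 0.03 and 0.09 and leaving out OP mouse 1 gave 0.01, 0.02 and 0.08, so the last 2 lists changed direction under both and the first without OP mouse 1.

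The FOXO list holds the FOXO factors and known targets of theirs, which AKT activity represses. It was the only one of the 4 downstream lists with a median above 0, at 0.24, and 9 of its 11 genes had a positive log2 fold change, against 70.1% of all genes tested with a negative one. Among the 9, *Foxo6* (0.03) and *Sesn1* (0.05) were close to 0. Median-of-ratios scaling also gave 9 of 11, but the median was 0.07 without OP mouse 1 and 0.10 without OR mouse 3, each with 8 of 11, and 7 of 11 were positive without OP mouse 3, without OR mouse 2 or with sample weights. The number of genes with an unadjusted limma-trend p below 0.05 was 2 here, 1 with median-of-ratios scaling, 1 without OP mouse 1, OP mouse 3, OR mouse 1 or OR mouse 3, and 3 without OR mouse 2. *Foxo3*, which encodes one of the factors, had 55.08, 34.88 and 34.4 FPKM in the OP group, against 22.47, 29.76 and 20.88 FPKM in the OR group. The groups did not overlap, and the difference was 0.72 on the log2 scale (standard error 0.23, adjusted p = 0.945, limma-trend), or 0.51 without OP mouse 1. *Fbxo32*, a ubiquitin ligase gene induced by FOXO, had 42.57, 25.76 and 24.82 FPKM in the OP group, against 14.86, 26.97 and 9.11 FPKM in the OR group, so OR mouse 2 overlapped with OP. The difference of 0.92 on the log2 scale (standard error 0.38, adjusted p = 0.945, limma-trend) was 0.67 without OP mouse 1, 0.56 without OR mouse 3 and 1.3 without OR mouse 2. OP mouse 1, which also had the highest *Irs2*, had the highest value in 6 of the 11 genes of this list and in 10.1% of all genes tested. The part of AKT activity or of cell types such as the epithelium in the values of this list was not tested.

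**Figure D4:**
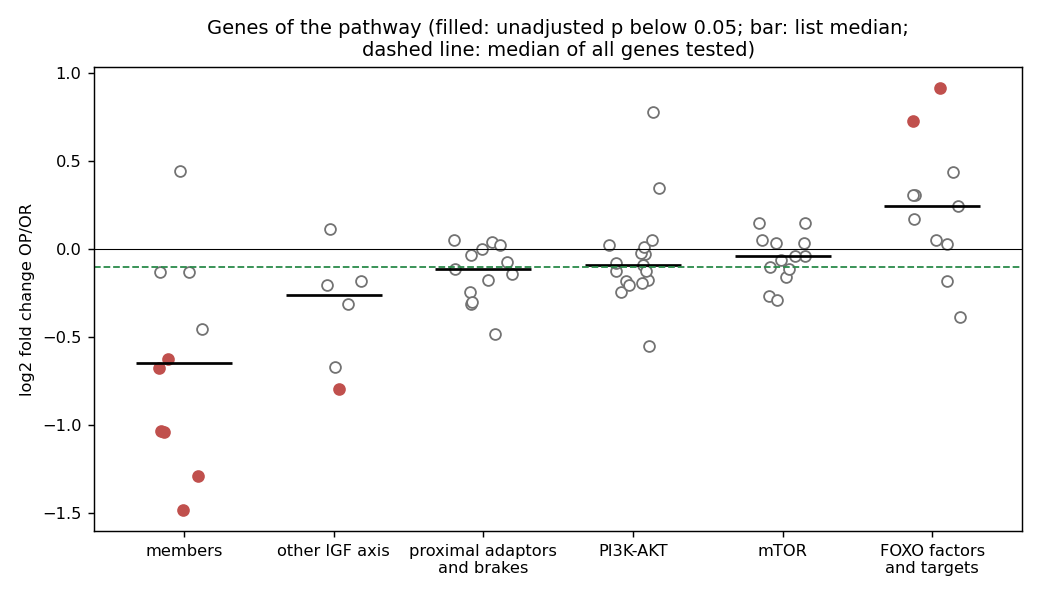
Log2 fold change OP/OR of each tested gene (circles; filled red where the unadjusted limma-trend p was below 0.05) in the 10 genes and in the 5 lists of other pathway genes, with each list's median as a black bar and the median of all genes as a dashed line at -0.10. Filled circles are 6 of the 10 genes, 1 of the other IGF axis and 2 of the FOXO list.

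Markers of fibroblasts, macrophages and blood vessels moved with the binding proteins and ligands. All 10 fibroblast markers had lower means on the log scale in OP mice, against 70.1% of all genes tested, and 6 of them had an unadjusted limma-trend p below 0.05, against 3.53% of all genes. *Col1a1*, *Col3a1*, *Lum* and *Fbln1* of this list are among the key driver genes that the study named from these colon data. The counts for this list are therefore partly fixed in advance. The summed level of the 10 markers was 69.8 to 121 FPKM in OP and 184 to 354 FPKM in OR mice. The 8 macrophage markers summed to 32.6 to 89.2 FPKM in OP and 96.6 to 129 FPKM in OR mice, and the 8 blood endothelium markers to 13.1 to 26.0 FPKM and 27.1 to 51.3 FPKM. All 8 of each list had lower means in OP mice and an unadjusted limma-trend p below 0.05, beside the same shares of 70.1% and 3.53% of all genes. With single mice left out these counts went down to 5 of 10 for fibroblasts, to 4 of 8 for macrophages (without OP mouse 2 or OR mouse 2; 5 without OP mouse 1 or OR mouse 3) and to 2 of 8 for blood endothelium (without OR mouse 3; 4 without OP mouse 2, 5 without OP mouse 1 or OR mouse 2). No marker of these 3 lists was at 0 in a mouse. Their lowest values were 0.57 FPKM for fibroblasts, 0.22 FPKM for macrophages and 0.38 FPKM for blood endothelium. A floor of 1 FPKM in every mouse kept 9 of 10, 5 of 8 and 2 of 8 markers. Of these, 5, 5 and 2 were lower at an unadjusted limma-trend p below 0.05. With median-of-ratios scaling 6 of 10, 7 of 8 and 7 of 8 were lower at that level. In bulk tissue, fewer cells of a type and less RNA per cell cannot be told apart.

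The summed FPKM of the 4 binding proteins was 0.359, 0.348 and 0.336 times that of the 10 fibroblast markers in the OP group, against 0.372, 0.344 and 0.259 times in the OR group. These ratios overlapped, and so did those to the macrophage markers (0.457 to 0.745 in OP and 0.513 to 0.828 in OR mice) and to the blood endothelium markers (1.57 to 1.85 and 1.59 to 2.53). The proteoglycan gene *Dcn* made up much of the fibroblast sum, and without it the ratios were 0.463 to 0.549 in OP and 0.564 to 0.682 in OR mice, which did not overlap. The ratios to the smooth muscle markers were 0.0102 to 0.0264 in OP and 0.0198 to 0.041 in OR mice. Those to the epithelium markers were 0.000994 to 0.00259 and 0.00223 to 0.00477. Both overlapped too, although their OR means were 1.85 and 2.21 times their OP means. For the fibroblast, macrophage and blood endothelium markers these were 0.936, 1.13 and 1.13 times. Overlap with 3 mice per group therefore does not tell the lists apart. All these ratios were chosen after the marker values had been seen and carry no test.

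The summed levels of the smooth muscle markers overlapped between the groups, at 1548 to 2382 FPKM in OP and 1893 to 3462 FPKM in OR mice. Of the single markers, *Acta2* and *Mylk* were lower in every OP mouse than in any OR mouse (2 of 8, against 6.81% of all genes tested). The smooth muscle markers had lower means on the log scale in OP mice in 8 of 8 genes, against 70.1% of all genes tested. At an unadjusted limma-trend p below 0.05 there were 0 of them. Their median of -0.34 was -0.07 without OR mouse 1, with 5 of 8 lower, and 6 of 8 were lower without OP mouse 3. At that p level 2 were lower without OP mouse 2 and 1 without OR mouse 2. The epithelial markers also overlapped (4 of 12 lower). The adipocyte markers were lower in 7 of 8 genes, overlapped between the groups, and had 5 genes at 0 in a mouse, among them *Adipoq* and *Plin1* in OP mouse 2. Their list median of -0.83 was the same as that of the blood endothelium markers (-0.83), but was -0.30 without OP mouse 2 and -0.38 without OR mouse 1. Lower at an unadjusted limma-trend p below 0.05 were 1 of 8, 4 with sample weights or the replicate block and 0 with median-of-ratios scaling. The part of any of these cell types in the differences of the 10 genes was not tested.

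**Figure D5:**
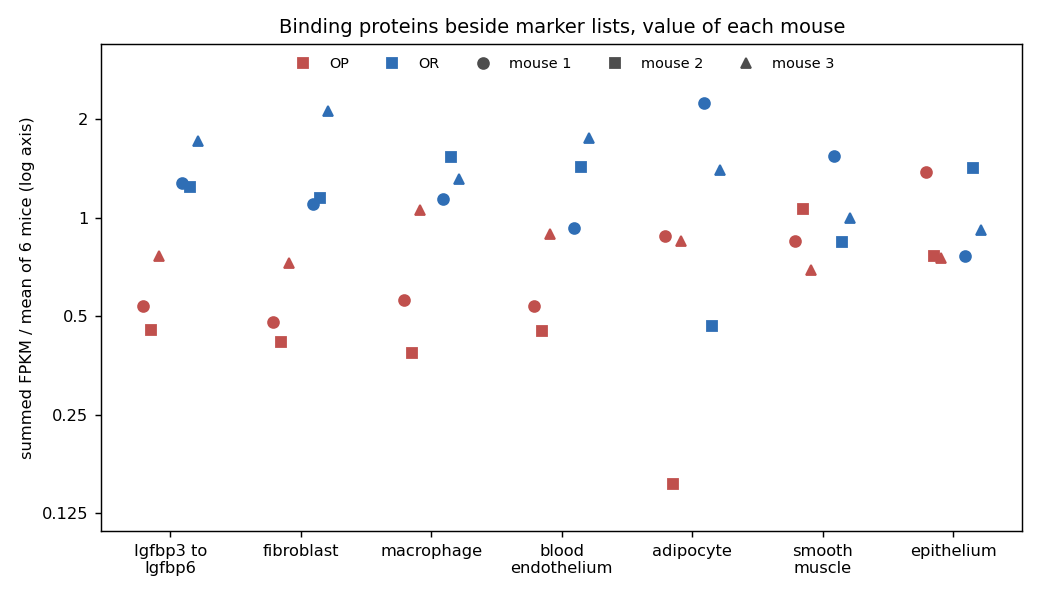
Summed FPKM of *Igfbp3* to *Igfbp6* and of 6 lists of cell type markers in each mouse, divided by the mean of the 6 mice (log axis), in OP (red) and OR (blue) mice, with marker shapes for the mouse number. Red and blue points are separate for the binding proteins and the fibroblast, macrophage and blood endothelium markers, and overlap for the adipocyte, smooth muscle and epithelium markers.

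The genes whose values followed *Igf1* most closely over the 6 mice on the log2(FPKM + 1) scale were *Npr1* (Pearson r = 0.994), a receptor for natriuretic peptides, *Inmt* (0.988), a methyltransferase gene, *Srpx* (0.980), *Htra1* (0.975), a secreted serine protease gene, and *Frmd6* (0.972). *Npr1* had 1.17, 0.80 and 1.13 FPKM in the OP group, against 2.70, 2.56 and 2.15 FPKM in the OR group. Among the other 9 genes, *Igf2* was nearest to *Igf1* with r = 0.940, ranking 32nd of all genes tested, followed by *Igfbp6* (0.888), *Igfbp4* (0.875), *Igfbp3* (0.83) and *Igfbp5* (0.758). *Irs2* had an r of -0.08. The 6 points share libraries and the difference between the groups, so these coefficients are a description and carry no p.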

How the data were processed

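RNA from the colon of 6 mice (3 OP, 3 OR) was sequenced in 6 libraries. The authors deposited gene levels as FPKM, rounded to 2 decimals, for 17778 gene symbols. Per the labels and the study's methods, strand-specific mRNA libraries were read on a DNBSEQ instrument, reads were filtered with SOAPnuke and aligned with Bowtie2 to a gene set, and genes were quantified with RSEM. The labels name Bowtie2 2.2.5 and RSEM 1.2.12, the methods name other versions, and the submitters' processing notes also list HISAT2 2.0.4 and build GRCm39. FPKM is relative to the whole library, so a few abundant genes can shift all other values. Read totals are unknown, so no counting error can be given.

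Samples were grouped by their titles. Genes with at least 0.5 FPKM in at least 3 mice (13520) were tested with limma-trend (limma 3.58.1, R 4.3.3) on log2(FPKM + 1), without covariates and with Benjamini-Hochberg adjustment over all of them, using the study's thresholds. The study's DESeq2 needs counts and was not run. For single values, two-sided exact permutation tests were used (SciPy 1.17.1). The fit was tested on simulated data. All p-values measure the spread between these 6 mice. The 10 genes, the gene lists and the tests were chosen with earlier results of these data known.

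All 10 genes are named, with the genes at an unadjusted p below 0.05 in each pathway list (at most 4, or the 1 with the smallest p) and the 5 genes most like *Igf1*. *Ins2*, *Igfbp1* and *Trim63* were not analysed here. Promoter windows are from RefSeq and neighbouring genes from GENCODE, both on build GRCm38, which is not the authors' build, so coordinates are given for the printed windows alone. The alternatives tried were median-of-ratios scaling, rescaling to TPM, limma with no trend, a pseudocount of 0.1, other filters, weights per sample, a replicate block and leaving out each mouse. Ratios to marker sums were added after seeing the data.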

Additional observations from a re-analysis of the deposited data

How the results depend on the processing

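The direction of 9 of the 10 genes was the same under all alternatives in which they were tested; *Insr* changed sign without OP replicate 1 (0.0142) and ranged down to -0.329 without OP replicate 3. None of the 10 passed a q-value of 0.2 under any alternative, and the smallest q-value was 0.329, without OP replicate 3. The number of the 10 genes lower at an unadjusted limma-trend p below 0.05 was 6, and 5 to 6 with each mouse left out and under the other alternatives. Their median on the log2 scale was -0.65, between -0.741 and -0.540 when single mice were left out and -0.966 with a pseudocount of 0.1, which by its construction gives low genes larger values. The *Igfbp5* share difference of -1.19 percentage points ranged from -5.62 (OP replicate 2 left out) to 1.90 (OP replicate 1 left out), and was 0.149 when OP replicate 3 was left out. The ratio of binding proteins to fibroblast markers, 0.0224 higher in OP mice, ranged from -0.0106 without OR replicate 3 to 0.0459 without OR replicate 1.

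Over all genes, 3 were called lower in OP mice, and 0 with median-of-ratios scaling, TPM, a pseudocount of 0.1, no filter, a floor of 1 FPKM in every mouse or the replicate block, 5 with sample weights, and 0 to 1 with each mouse left out. Genes with an unadjusted limma-trend p below 0.05 numbered 68 higher in OP mice, and 153 with median-of-ratios scaling, 133 with no filter, 146 with sample weights and 24 to 181 with each mouse left out. At that level 477 were lower, and 317 with the floor of 1 FPKM and 231 to 1104 with each mouse left out. Genes higher in OP mice without overlap were 220, and 518 with median-of-ratios scaling. The causes of these changes were not tested, beyond the smaller number of mice or genes.

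With the replicate block, 5 of the 10 genes were lower at an unadjusted limma-trend p below 0.05, the median was again -0.648 and the smallest q-value 0.673. The numbers do not pair the mice: deviations of same-numbered mice correlated at -0.144, -0.157 and 0.0709. The smallest p of a test within pairs is 0.25. The unknown depth limits *Igf1* and *Irs1*, whose values are low, and 3 mice per group limit all single comparisons.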
